A study of Homo sapiens with 4 samples.

Results

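The insulin-like growth factor binding protein (IGFBP) genes were followed across 4 expression arrays of U87 cells, an established human glioblastoma line. The members are IGFBP1 to IGFBP7, found by symbol, and all 7 were measured among 23786 features, each feature standing for 1 Entrez-numbered gene. The arrays held cells given 2 µM crizotinib for 24 hours, cells given vehicle for 24 hours, cells kept in 1 µM crizotinib for 21 days (labelled crizotinib-resistant), and drug-free cells in otherwise the same growth condition (labelled crizotinib-sensitive). Crizotinib is a kinase inhibitor of the receptors MET, ALK and ROS1, and all cultures grew in DMEM with fetal bovine serum. Each condition was 1 culture on 1 array, so differences have no replicate check and no p-value is given. The treatment protocol gives the same culture name to both 21-day arms, and the sign of each 21-day difference rests on reading the resistant array as the drug culture. The study asked how acute and chronic exposure to the drug alter expression.

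The IGFBPs are secreted proteins that bind the insulin-like growth factors IGF1 and IGF2 and so control how much growth factor reaches the receptor IGF1R. Most hold the growth factor away from its receptor, and proteases that cut the binding protein set it free. Several also act without the growth factors, through integrins, matrix or other cell-surface proteins, and IGFBP2 is known for its high expression in glioblastoma. IGFBP7 is a more distant relative that binds the growth factors weakly.

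The genes are a family listed by name, but the family was chosen by measured values, the strong 21-day differences of IGFBP1 and IGFBP3, so the levels of the family on these arrays are a description. Values are log2 expression, and a difference of 1 is 2-fold. A gene is counted as changed when it differs by at least 2-fold and its higher array reaches at least 4.96, the median over all values of the 4 arrays. In the 21-day comparison 3 of the 7 genes were counted as higher (IGFBP1, IGFBP3 and IGFBP4) and 0 as lower, where 3.97% of the 12450 features past the level filter were higher, 4.08% lower and 8.05% one or the other. In the 24-hour comparison 0 of 7 were counted in either direction, where 2.88% of 12468 features were higher, 2.13% lower and 5.0% one or the other. In bulk RNA, a change in the share of cells of a kind and a change in RNA per cell cannot be told apart.

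Promoter sequence was matched for 5 of the 7 genes in the RefSeq table (GRCh38.p14), which spans 250 bases before to 50 bases after a gene's start. IGFBP1 and IGFBP7 had no matched promoter, so IGFBP1, also counted as higher at 21 days, was not searched for motifs. The promoters of IGFBP3 and IGFBP4 are shown because both genes were counted as higher at 21 days. IGFBP2 was matched but is not shown. IGFBP6 is shown as the gene nearest to the 2-fold threshold, and IGFBP5 as a gene whose 4 values were nearly flat. Sequences run 5′ to 3′ on the gene's strand, and capitals mark matches to the motifs named after them.
IGFBP3 (chr7:45921223-45921522, minus strand): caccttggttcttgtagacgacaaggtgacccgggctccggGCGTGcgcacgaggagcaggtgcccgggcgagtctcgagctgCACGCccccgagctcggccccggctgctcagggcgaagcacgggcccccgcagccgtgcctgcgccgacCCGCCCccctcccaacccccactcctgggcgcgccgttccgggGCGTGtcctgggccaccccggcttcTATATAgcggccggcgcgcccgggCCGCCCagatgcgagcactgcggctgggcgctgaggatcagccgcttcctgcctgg
IGFBP4 (chr17:40443200-40443499, plus strand): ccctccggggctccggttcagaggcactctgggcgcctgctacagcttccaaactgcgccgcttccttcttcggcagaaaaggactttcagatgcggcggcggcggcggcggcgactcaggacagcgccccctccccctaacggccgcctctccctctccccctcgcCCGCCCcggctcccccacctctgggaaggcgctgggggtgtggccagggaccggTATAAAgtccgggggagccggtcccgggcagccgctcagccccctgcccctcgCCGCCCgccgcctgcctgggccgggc
IGFBP6 (chr12:53097417-53097716, plus strand): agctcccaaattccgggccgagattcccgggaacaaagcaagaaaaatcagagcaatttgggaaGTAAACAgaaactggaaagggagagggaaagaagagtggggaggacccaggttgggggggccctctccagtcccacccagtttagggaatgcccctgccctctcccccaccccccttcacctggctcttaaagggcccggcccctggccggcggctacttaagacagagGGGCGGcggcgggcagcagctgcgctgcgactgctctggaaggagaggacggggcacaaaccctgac
IGFBP5 (chr2:216695500-216695799, minus strand): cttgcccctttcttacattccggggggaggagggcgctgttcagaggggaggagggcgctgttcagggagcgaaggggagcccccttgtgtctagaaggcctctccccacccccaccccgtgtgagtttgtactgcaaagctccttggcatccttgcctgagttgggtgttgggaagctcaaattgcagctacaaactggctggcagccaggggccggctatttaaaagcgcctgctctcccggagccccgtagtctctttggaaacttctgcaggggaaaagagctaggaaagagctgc

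Both strands were searched for 9 short motifs, and each share given here is that of all 35116 promoters of the same length that hold the motif. IGFBP3 held TATATA, 1 form of the core promoter element bound by the TBP protein, beginning 30 bases before its start, and 3.99% of promoters hold it. IGFBP4 held TATAAA, the more common form of that element and found in 11.5% of promoters, beginning 29 bases before its start. The GC box GGGCGG, read by SP1-type factors and found in 45.0% of promoters, occurred at 2 places in IGFBP3, at 2 in IGFBP4 and at 1 in IGFBP6. IGFBP3 also held 3 copies of GCGTG, a core of the hypoxia response element found in 36.5% of promoters. The forkhead core GTAAACA, the kind of site that FOXO factors read and found in 3.42% of promoters, occurred 186 bases before the start of IGFBP6. The other core of the hypoxia response element, ACGTG (21.4%), the E-box CACGTG that contains it (7.26%), the AP-1 site TGANTCA (7.71%) and the cAMP response site TGACGTCA (1.85%) matched in none of the 4 windows shown. None of the 9 motifs matched in the IGFBP5 window. These matches describe letters and do not show a bound site.

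IGFBP1 had the highest 21-day difference of the family. This gene, made mainly by liver in the body and repressed by insulin through FOXO factors, stood at 9.33 on the 21-day crizotinib array, against 5.64 on the 21-day control array. It stood at 6.67 on the 24-hour crizotinib array, against 6.72 on the vehicle array. The 21-day crizotinib array was the high one and the 21-day control array the low one, while both 24-hour arrays lay between them. The 21-day difference was 3.69, a 12.9-fold higher signal, and ranked 6 among the 12450 features past the level filter. The 24-hour difference was -0.05.

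IGFBP3, the main carrier of the growth factors in blood, showed the same order of the 4 arrays. Its values were 10.39 on the 21-day crizotinib array, against 7.06 on the 21-day control array, and 7.77 on the 24-hour crizotinib array, against 7.93 on the vehicle array. The 21-day difference was 3.33 (10.1-fold, rank 14 of 12450), and the 24-hour difference was -0.16. Again the 21-day crizotinib array stood above the other 3 and the 21-day control array stood lowest.

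The size of the differences of IGFBP1 and IGFBP3 depends on which drug-free array is used. Between the drug-free cultures, IGFBP1 differed by -1.08 and IGFBP3 by -0.87 (21-day control minus vehicle), and 98.9% and 98.1% of the 12397 features past the filter lay above them in that comparison. The 21-day control array enters this difference and the 21-day drug difference alike. Against the vehicle array, the 21-day crizotinib array was higher by 2.62 for IGFBP1 (6.13-fold) and by 2.46 for IGFBP3 (5.5-fold). IGFBP1 was the 1 member counted as changed between the drug-free cultures, where 1.68% of the 12397 features were higher, 1.38% lower and 3.06% one or the other. These cultures differ in culture time and array together.

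IGFBP4, an inhibitor of growth factor action that the protease PAPPA cuts, was the third gene past 2-fold at 21 days. It stood at 7.9 on the 21-day crizotinib array, against 5.74 on the 21-day control array, and at 5.68 on the 24-hour crizotinib array, against 5.8 on the vehicle array. The 3 other arrays lay within 0.12 of each other, and the 21-day crizotinib array lay 2.1 above the highest of them. Its 21-day difference was 2.16 (4.47-fold, rank 59 of 12450) and its 24-hour difference -0.12. Unlike IGFBP1 and IGFBP3, it was nearly level between the drug-free cultures, at -0.06, so that its difference against the vehicle array was 2.1.

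IGFBP6, which prefers IGF2 over IGF1, lay just under the threshold. Its values were 9.98 on the 21-day crizotinib array, against 8.99 on the 21-day control array, and 8.91 on the 24-hour crizotinib array, against 8.46 on the vehicle array. The differences were 0.99 at 21 days and 0.45 at 24 hours, and the drug-free cultures differed by 0.53. Against the vehicle array the 21-day difference was 1.52, past 2-fold. The members on either side of the threshold at 21 days were thus IGFBP4 at 2.16 and IGFBP6 at 0.99.

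IGFBP7 stood at 9.83 on the 21-day crizotinib array, against 9.13 on the 21-day control array, and at 9.56 on the 24-hour crizotinib array, against 9.11 on the vehicle array. Both crizotinib arrays lay above both drug-free arrays, by 0.71 at 21 days and 0.44 at 24 hours, and the drug-free arrays differed by 0.01. Neither difference reached 2-fold, and 7.82% of features past the filter had a higher 21-day difference. Its antisense neighbour IGFBP7-AS1 stayed between 2.91 and 3.48, under the level filter on all 4 arrays.

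IGFBP2 and IGFBP5 were near the median of all values on each array and nearly flat. IGFBP2 stood at 4.41 on the 21-day crizotinib array, against 4.58 on the 21-day control array, and at 4.84 on the 24-hour crizotinib array, against 4.76 on the vehicle array, so it passed the level filter in neither comparison. IGFBP5, a binding protein that also attaches to matrix, stood at 4.91 on the 21-day crizotinib array, against 4.94 on the 21-day control array, and at 5.13 on the 24-hour crizotinib array, against 5.05 on the vehicle array. It passed the filter at 24 hours and not at 21 days. Differences were -0.17 and -0.03 at 21 days and 0.08 for each gene at 24 hours. These are the 2 members that were lowest on the 21-day crizotinib array, whereas the other 5 were highest there. Values this low are compressed by the background of the array, and no detection calls were used here.

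**Figure D1:**
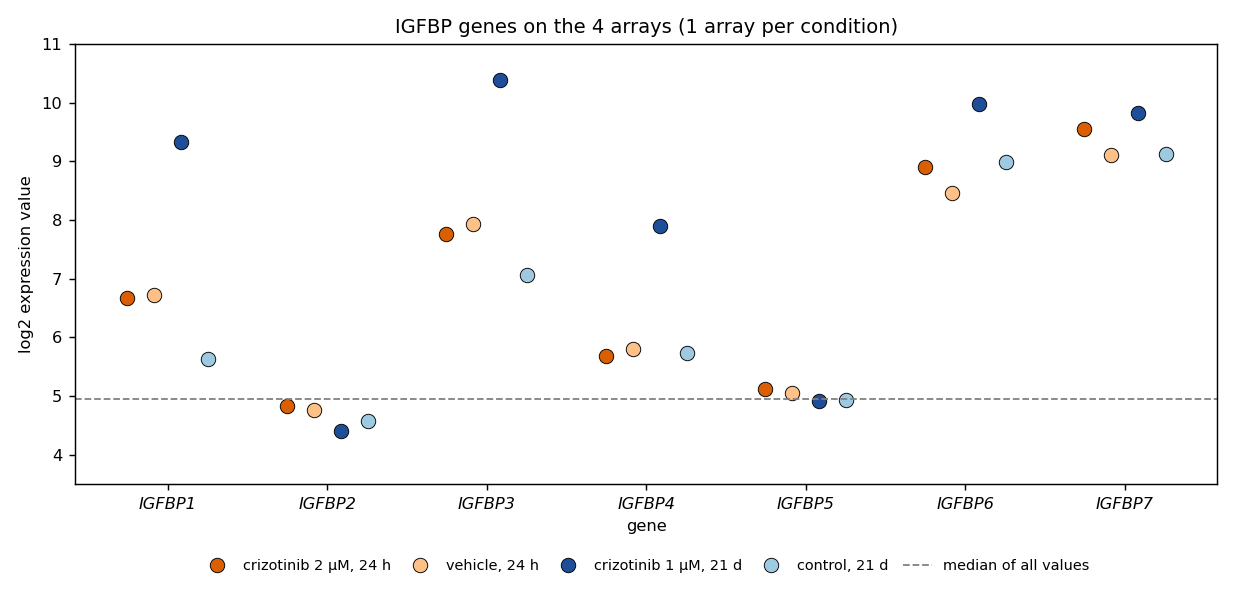
Log2 expression (vertical axis) of the 7 IGFBP genes (horizontal axis) on the 4 arrays, 1 point per array, with the median of all values as a dashed line. IGFBP1, IGFBP3 and IGFBP4 are at 9.33, 10.39 and 7.9 on the 21-day crizotinib array and at 5.64, 7.06 and 5.74 on the 21-day control array, while IGFBP2 and IGFBP5 stay near the dashed line.

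**Figure D2:**
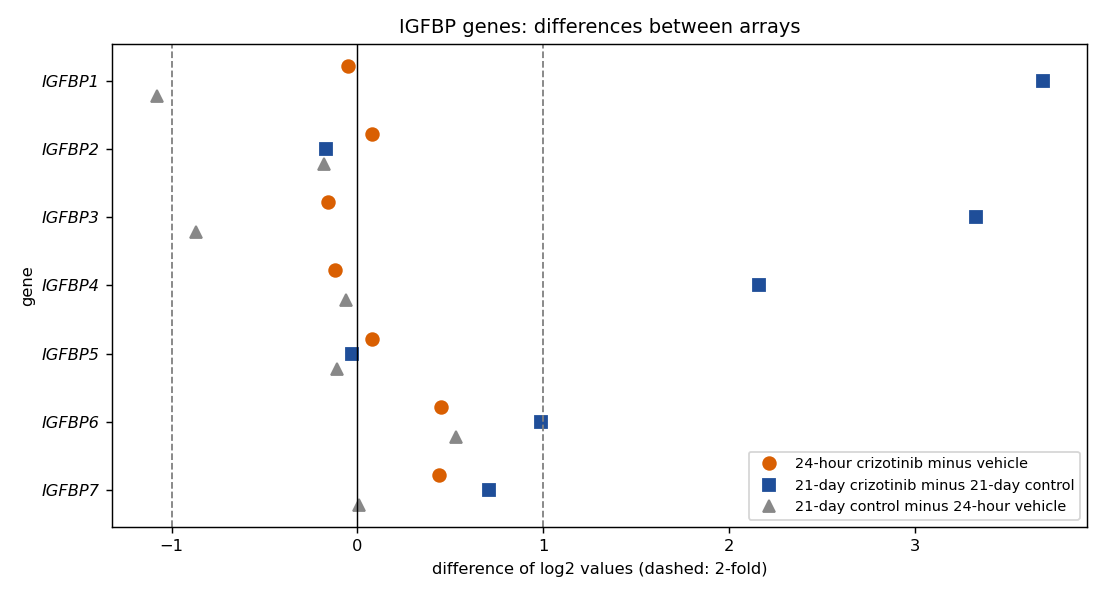
Difference of log2 values (horizontal axis) for each IGFBP gene (vertical axis) in the 24-hour, the 21-day and the drug-free comparison, with dashed lines at 2-fold. The 21-day squares of IGFBP1, IGFBP3 and IGFBP4 lie past 2-fold at 3.69, 3.33 and 2.16, the 24-hour circles lie between -0.16 and 0.45, and the drug-free triangle of IGFBP1 lies at -1.08.

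IGFBP1 and IGFBP3 are next to each other on chromosome 7, and IGFBP2 and IGFBP5 on chromosome 2, by the order of genes in GRCh38.p14. The levels of each gene over the 4 arrays were compared after subtracting the gene's own mean, with the Euclidean distance in log2 units as the measure of likeness. Among 12432 named genes that reach the level filter on at least 1 array, IGFBP3 was the nearest to IGFBP1 and IGFBP1 the nearest to IGFBP3, at a distance of 0.28. The rule on these genes rests on the 21-day difference they share, so this closeness is a description over 4 arrays. IGFBP4 ranked 21 for IGFBP1 at a distance of 1.12, and 18 for IGFBP3 at 0.85. Of the 21 pairs of members, IGFBP2 with IGFBP5 had the smallest distance, 0.17, and both of those genes were nearly flat.

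After its neighbour, the genes closest to IGFBP1 were the odorant receptor OR7C1 at 0.59, the fibroblast growth factor FGF7 at 0.6, the monocyte chemokine CCL2 at 0.63 and RPTN, a protein of the cornified cell envelope, at 0.71. For IGFBP3 they were OR7C1 at 0.36, CCL2 at 0.37, the sulfotransferase SULT1C2 at 0.54 and RPTN at 0.55. CCL2 stood at 8.83 on the 21-day crizotinib array, against 5.94 on the 21-day control array, and at 6.34 on the 24-hour crizotinib array, against 6.76 on the vehicle array. Like the pair on chromosome 7, it was highest on the first of these arrays and lowest on the second. OR7C1 reached 4.99 on the 21-day crizotinib array and lay between 1.98 and 2.36 on the other 3. OR7C1, FGF7, RPTN and SULT1C2 entered the search only through the 21-day crizotinib array, where IGFBP1 and IGFBP3 were chosen as high. Their peak on that array is thus partly set by the level filter.

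**Figure D3:**
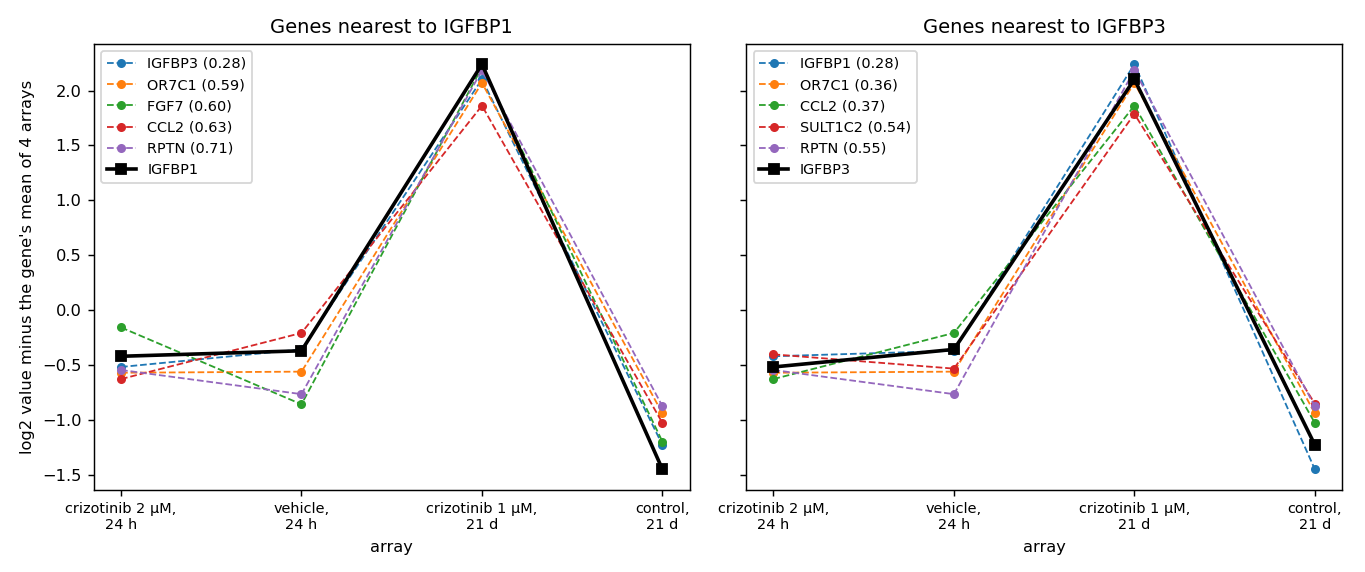
Log2 value minus the gene's mean (vertical axis) on the 4 arrays (horizontal axis) for IGFBP1 (left) and IGFBP3 (right) in black, with the 5 nearest genes dashed and their distances in the legend. Each profile peaks on the 21-day crizotinib array, and IGFBP1 and IGFBP3 are each other's nearest gene at 0.28.

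None of the genes flanking the IGFBP loci was counted as higher at 21 days. Of 30 measured neighbours, 3 on each side of the 5 loci, 0 were at least 2-fold higher and 1 lower. The median of the 30 differences was 0.1. Over all features past the level filter, 3.97% were higher and 4.08% lower. The 30 neighbours include genes under the filter on both 21-day arrays, which the rule could not count. The counts out of 30 and those shares thus have unlike bases. The genes under the filter were RPL37A-DT, TNP1, DIRC3, IGFBP7-AS1, ADGRL3, TECRL, ADCY1, SEPTIN7P2, LINC00525, SOAT2, GJD3, TNS4 and CCR7. Beside IGFBP1 and IGFBP3 lay RAMP3 at 0.56, a partner of the calcitonin-type receptors, the adenylyl cyclase ADCY1 at -0.05, the pseudogene SEPTIN7P2 at -0.16, the adhesion protein TNS3 at 0.47, LINC02902 at -0.04 and LINC00525 at 0.15. The gene next to IGFBP4 is TOP2A, the topoisomerase of dividing cells, which stood at 7.47 on the 21-day crizotinib array, against 10.06 on the 21-day control array, a difference of -2.6. The direction was thus opposite for IGFBP4 and its neighbour. RARA, GJD3, TNS4, CCR7 and SMARCE1, the other neighbours of IGFBP4, lay between -0.28 and 0.28.

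Tensin genes, which encode adaptors that link integrins to actin, lie beside the IGFBP loci on chromosomes 2, 7, 12 and 17. Their 21-day differences were 0.71 for TNS1 near IGFBP2 and IGFBP5, 0.47 for TNS3 near IGFBP1 and IGFBP3, -0.69 for TNS2 near IGFBP6 and 0.28 for TNS4 near IGFBP4. At 24 hours TNS2 stood at 7.65 on the crizotinib array, against 6.26 on the vehicle array, a difference of 1.39. Among the 30 neighbours at 24 hours, which again include genes under the filter, 2 were counted as higher and 1 as lower. Over all features past the filter, the shares were 2.88% and 2.13%. The neighbours counted were TNS2 and RPL37A-DT (1.13), both higher, and MARCHF4 (-1.13), a ubiquitin ligase, lower. The IGFBP genes beside them, IGFBP6, IGFBP2 and IGFBP5, differed by 0.45, 0.08 and 0.08 at 24 hours. REST, NOA1 and POLR2B, on one side of IGFBP7, lay between -0.47 and 0.09 at 21 days, and ADGRL3 and TECRL, on the other side, at -0.29 and 0.14. SPRYD3, SOAT2, CSAD and ZNF740 near IGFBP6 lay between 0.12 and 0.49, and TNS2-AS1 at 0.01. SMARCAL1, TNP1 and DIRC3 near IGFBP2 and IGFBP5 lay between -0.12 and 0.18.

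**Figure D4:**
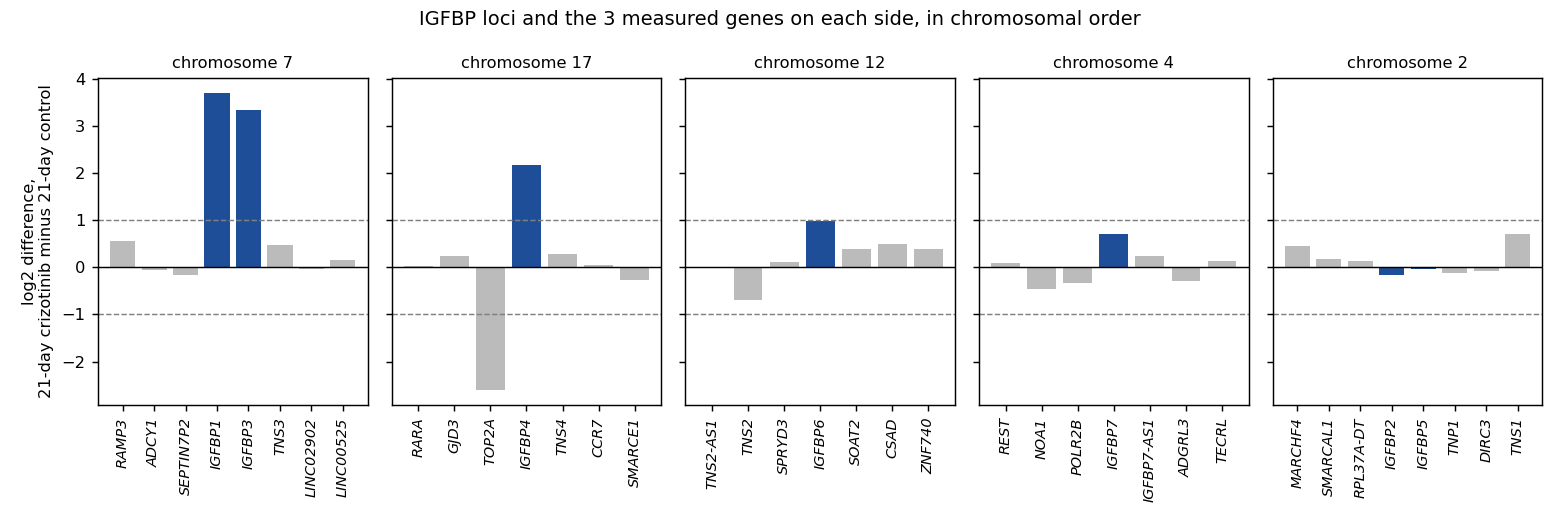
Log2 difference of the 21-day crizotinib array minus the 21-day control array (vertical axis) for the IGFBP genes (dark bars) and the 3 measured genes on each side (grey bars) in chromosomal order (horizontal axis), with dashed lines at 2-fold. IGFBP1, IGFBP3 and IGFBP4 are the bars past 2-fold upward, and TOP2A at -2.6 is the 1 bar past 2-fold downward.

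The ligands and receptors that the IGFBPs act on differed by less than 2-fold in both comparisons. Of 7 measured genes, 3 passed the level filter at 21 days and 4 at 24 hours, and 0 were counted as changed, beside 8.05% of all features at 21 days and 5.0% at 24 hours. IGF1R, the receptor, stood at 7.66 on the 21-day crizotinib array, against 7.22 on the 21-day control array, and at 7.73 on the 24-hour crizotinib array, against 6.89 on the vehicle array. The insulin receptor INSR was higher by 0.67 at 21 days and by 0.61 at 24 hours, on a level of 5.96 on both crizotinib arrays. IGF2R, the receptor that clears IGF2, differed by 0.23 and 0.35. IGF1 lay between 3.72 and 4.19, under the level filter on all arrays, and IGF2 between 4.59 and 5.22, with differences of -0.16 at 21 days and -0.04 at 24 hours. The growth factors in serum are proteins and are not measured here.

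Among genes that carry the insulin and IGF signal, 0 of 27 past the filter were changed at 21 days, where 8.05% of all features were, and the median difference over these was -0.02. The adaptor IRS1 had the lowest 21-day difference, -0.87, at 6.36 on the crizotinib array, against 7.23 on the control array. Its relative IRS2 was at 0.13. At 24 hours 1 of 27 was higher and 1 lower, near the 2.88% and 2.13% of all features. These were PIK3R3, a regulatory subunit of PI3 kinase, at 1.46, and EIF4EBP1, the translation repressor that mTOR controls, at -1.31. IRS2 differed by 0.93 at 24 hours, at 6.41 on the crizotinib array, against 5.48 on the vehicle array, and IRS1 by 0.27. Against the 21-day control, the 24-hour difference of PIK3R3 was 2.27. MET, a target of the drug, differed by -0.38 at 21 days and -0.29 at 24 hours.

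Proteases that cut IGFBPs and their inhibitors held 8 genes that were at least 2-fold higher at 21 days and 0 lower, among 29 measured genes of which 20 passed the level filter (3.97% of all features past the filter were higher). MMP7 and MMP9 passed the filter only through the 21-day crizotinib array. The median difference was 0.37 over all 29 measured genes. PAPPA, the metalloprotease that cuts IGFBP4, stood at 9.99 on the 21-day crizotinib array, against 8.66 on the 21-day control array, a difference of 1.33. On the 24-hour arrays it stood at 7.79 with crizotinib, against 8.13 with vehicle. STC1, a stanniocalcin that inhibits PAPPA, was also higher at 21 days, by 1.06, and its relative STC2, another PAPPA inhibitor, by 0.73. At 24 hours STC1 and STC2 differed by -0.79 and -0.8. Both protease and inhibitors were thus highest on the 21-day crizotinib array.

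The matrix metalloproteases MMP7, MMP3, MMP9 and MMP1, a class of enzymes able to cut several IGFBPs, had 21-day differences of 3.94, 2.03, 1.43 and 1.34. The other metalloproteases of the MMP family on the list, MMP2 and MMP14, both differed by 0.13, with MMP2 at 11.6 on the 21-day crizotinib array, against 11.48 on the 21-day control array. MMP1 stood at 10.57 on the 21-day crizotinib array, against 9.23 on the 21-day control array, and at 3.69 on the 24-hour crizotinib array, against 4.21 on the vehicle array. The arrays of the 21-day cultures were thus the high ones, and against the vehicle array the difference was 6.36. HTRA1, a serine protease with an IGFBP-type domain of its own, differed by 1.19 at 21 days, but by 0.08 against the vehicle array, since the 21-day control itself differed from vehicle by -1.1. TIMP1, a metalloprotease inhibitor, was at the threshold with a difference of 1.0, and at 0.95 with each array centred on its median. STC1 was at 0.67 against the vehicle array, under 2-fold. IGFALS, the third protein of the complex that carries IGFBP3 in blood, differed by -0.21 at 21 days and ADAM9, the lowest of the list, by -0.35.

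At 24 hours 0 of 17 genes of the protease list that passed the filter were higher and 1 was lower, beside 2.88% and 2.13% of all features. That gene was PLAU, urokinase, at 7.94 on the crizotinib array, against 10.26 on the vehicle array, a difference of -2.31. C1R, a complement protease, was the highest at 0.86. The median of the 17 was -0.02, against 0.0 over all features past the filter.

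Proteins with an IGFBP-type domain that are not members of the family are distant relatives by sequence. At 21 days 3 of 10 past the filter were higher and 0 lower, beside 3.97% and 4.08% of all features. Besides HTRA1 these were CCN4, a matricellular protein that Wnt signals induce, at 2.15 and its relative CCN3 at 1.22. CCN4 stood at 6.78 on the 21-day crizotinib array, against 4.63 on the 21-day control array, and at 6.25 on the 24-hour crizotinib array, against 5.46 on the vehicle array, and its 21-day difference was 1.31 against that array. CCN3 differed by 0.9 at 24 hours and CCN1, a target of YAP, by -0.96. At that time 0 of 7 past the filter were counted as changed, where 5.0% of all features were. CRIM1 differed by -0.6 at 21 days. IGFBPL1, the gene closest to the family by name, lay under the filter on all 4 arrays, between 3.19 and 3.81.

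The list of cell-surface and matrix partners of the IGFBPs also holds the nuclear receptors RXRA, RXRB and NR4A1 and the nuclear import factor KPNB1. Of the listed genes, 0 of 17 past the filter were counted in either comparison. Over all features 8.05% were counted at 21 days and 5.0% at 24 hours. LRP1, an endocytic receptor that binds IGFBP3, came nearest at 0.97, with 10.28 on the 21-day crizotinib array, against 9.31 on the 21-day control array. TMEM219, a receptor for IGFBP3, differed by 0.52, and the syndecan SDC1 by -0.42 at 21 days and -0.74 at 24 hours. SPP1, osteopontin, differed by 0.55 at 21 days and 0.48 at 24 hours.

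Among transcription factors and signals known to act on IGFBP genes, 1 of 25 past the filter was higher at 21 days and 1 lower, shares close to the 3.97% and 4.08% over all features. DDIT3, a factor of the stress response, stood at 5.42 on the crizotinib array, against 4.19 on the control array (1.24). It passed the filter only through the 21-day crizotinib array. The nuclear receptor PPARG stood at 4.46 on the crizotinib array, against 5.8 on the control array (-1.34). The difference of PPARG was -0.38 against the vehicle array. FOXO4, a forkhead factor, and SMAD3, which carries TGF-beta signals, lay just inside 2-fold at 0.97 and -0.93. At 24 hours MYC was the 1 gene of 24 that was changed, at -1.47, where 5.0% of all features were changed. FOXO1, which drives IGFBP1 in liver, lay under the filter on all arrays, between 3.48 and 4.38, and HIF1A, controlled mainly through its protein, differed by -0.04 at 21 days and 0.07 at 24 hours. RNA levels say nothing of the activity of these proteins.

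**Figure D5:**
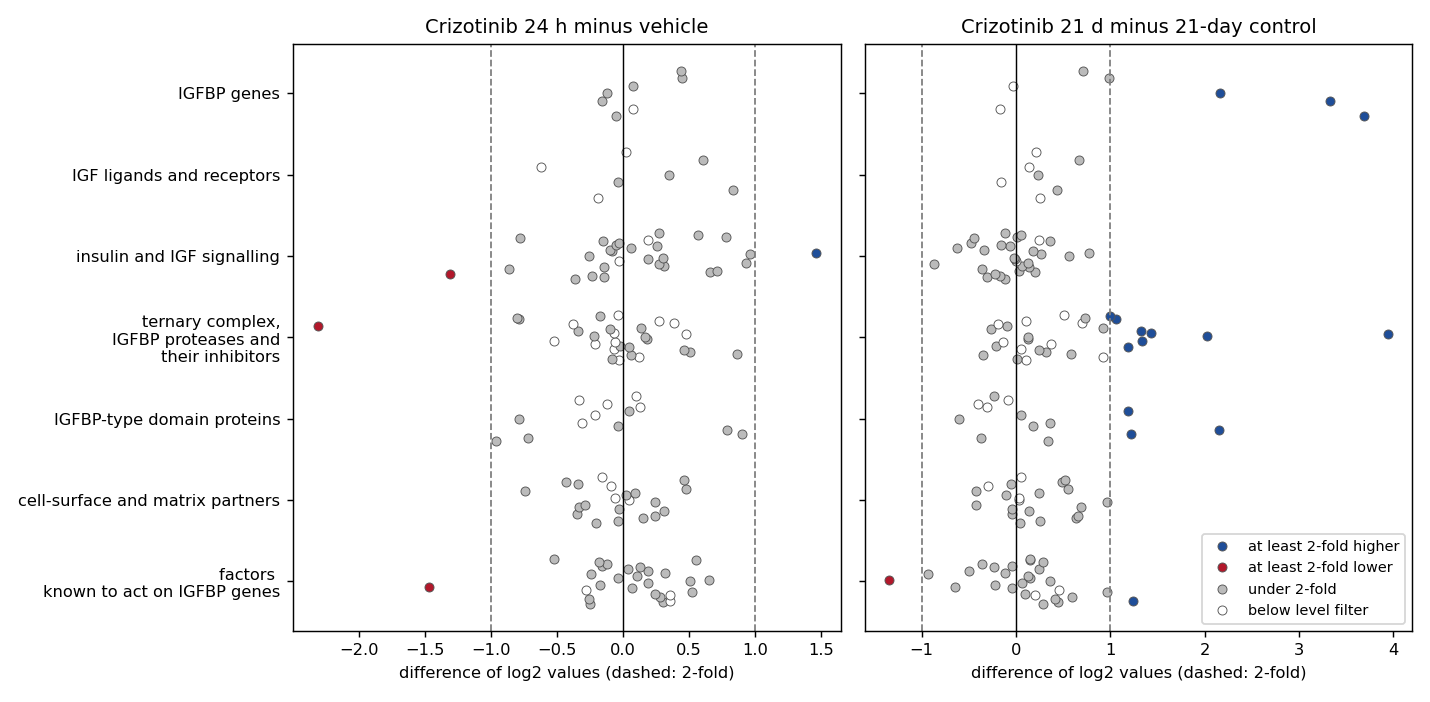
Difference of log2 values (horizontal axis) of the IGFBP genes and of 6 lists of related genes (rows), 1 point per gene, at 24 hours (left) and 21 days (right), with dashed lines at 2-fold and fill showing the size and level rule. At 21 days the protease list holds 8 genes past 2-fold upward and the IGFBP genes 3, and at 24 hours the 7 IGFBP genes lie within 2-fold.

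Markers were checked for the label and for other cells. All 5 markers of mesenchymal glioma (VIM, CD44, CHI3L1, FN1 and TNC) passed the level filter, whereas 0 of 4 astrocyte markers reached it on any array. CDKN2A, known to be deleted in U87, lay between 3.67 and 3.84. Of the mesenchymal markers, CHI3L1 differed by 3.18 at 21 days and 2.14 at 24 hours, while VIM, CD44, FN1 and TNC differed by less than 2-fold in both comparisons. None of the 4 leukocyte or 3 endothelial markers reached the filter. Of 3 liver markers 2 reached it on at least 1 array: TTR lay between 4.72 and 5.13 and APOA1 between 4.35 and 5.03, while ALB lay between 3.85 and 4.07. Of 4 epithelial markers KRT8 (5.77 to 6.38) and EPCAM (3.88 to 5.02) reached it, and CDH1 and KRT18 did not. Of 3 neuron markers SNAP25 (7.21 to 8.09) and SYT1 (4.44 to 6.83) reached it, and SYT1 differed by 1.09 at 24 hours, by -0.08 at 21 days and by -1.22 between the drug-free arrays. Of 4 fibroblast markers, 3 were counted as higher at 21 days and 1 as lower, where 3.97% and 4.08% of all features were. DCN was higher by 5.02, LUM by 2.54 and PDGFRA by 1.66, while COL1A1 differed by -1.16. DCN and PDGFRA passed the filter only through the 21-day crizotinib array. LUM was also counted as higher at 24 hours, by 1.3, when none of the IGFBP genes was. The summed level of the 4 markers on the log2 scale was 10.11 on the 21-day crizotinib array, against 9.72 on the 21-day control array. On the 24-hour arrays it was 9.58 with crizotinib, against 9.39 with vehicle. The part of CHI3L1, SYT1 and the fibroblast markers in the IGFBP differences was not tested. Array medians lay between 4.92 and 4.98, and 1 array per condition limits how precise any value here can be.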

How the data were processed

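Total RNA of 4 U87 cultures was labelled with biotin and hybridised to Affymetrix whole-transcript arrays, 1 array per condition. The authors deposited log2 expression values, and the submitters' processing notes name RMA, affy 1.36.1 and R 2.15.1. RMA removes background, equalizes the distributions of the arrays by quantiles and reduces the probes of a gene to 1 value, and it compresses differences between low values. Scanner files were not used here. Symbols came from the platform's gene table, which names 22458 of the 23786 features.

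Groups were taken from the labels. Each crizotinib array was set against its own control, and the drug-free arrays against each other, with python 3.11.15, numpy 2.4.6 and pandas 2.3.3. A gene was counted as changed by its size (2-fold or more, higher array at or above 4.96), with no p-value, since 1 array per condition leaves no residual degree of freedom. The counting was tested on simulated data with a spread per array below the 0.3 taken from the drug-free arrays. That test does not show how often noise passes 2-fold in these data. The members and lists were chosen with earlier results of these data known. Of 134 listed genes 125 had a feature, and the others were not analysed here. The text names the members, list genes past 2-fold or at the end of their list, a fixed set of pathway genes, 3 neighbours on each side of a locus and the 5 nearest genes of IGFBP1 and IGFBP3; others are named to complete a group. Alternatives were no level filter, 1.5-fold, median centring, repeated quantile normalization and other controls.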

Additional observations from a re-analysis of the deposited data

Results flagged for a closer look

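Among the 7 members and the genes of the 6 lists, 10 were found in which the 24-hour and the 21-day differences had opposite signs, with at least 1 of them past 2-fold. The share of all features that met this rule was not computed. The doses differ between the comparisons, each difference comes from 2 arrays, and the contrast between times was not tested. The 21-day difference minus the 24-hour difference was 3.74 for IGFBP1, 3.49 for IGFBP3 and 2.28 for IGFBP4, whose 24-hour differences were -0.05, -0.16 and -0.12. These are smaller than 0.43, the standard deviation over features of the difference between the drug-free arrays, so their signs are uncertain. That spread also holds differences between the 2 cultures. Against the 21-day control, the 24-hour differences of IGFBP1 and IGFBP3 were above 0, at 1.03 and 0.71. The 21-day minus the 24-hour difference was 2.26 for MMP3, 1.87 for MMP1, 1.5 for MMP9, 1.67 for PAPPA and 1.17 for TIMP1. At 24 hours MMP3, MMP9, TIMP1 and PAPPA also differed by less than 0.43, at -0.22, -0.07, -0.17 and -0.34. For STC1 it was 1.85, with -0.79 at 24 hours and 1.06 at 21 days. For PPARG it was -1.99, with 0.65 at 24 hours and -1.34 at 21 days.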

How the results depend on the processing

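With the arrays centred on their medians or quantile normalized again, each of the 7 IGFBP differences moved by less than 0.3, the spread per array taken from the drug-free arrays, in all 3 comparisons. IGFBP6 passed 2-fold after the second of these, at 1.01, which gave 4 changed members at 21 days in place of 3. The count was also 4 with the vehicle array or the mean of the drug-free arrays as control, and 5 at 1.5-fold, which adds IGFBP6 and IGFBP7. Set against the 21-day control, 1 member (IGFBP1, at 1.03) was past 2-fold at 24 hours, in place of 0. No difference past 2-fold changed sign under these alternatives among the members and the list genes counted as changed at 24 hours or 21 days. The alternatives were not run for the other genes named, ESM1 among them. Over all features, 1.5-fold gave 2360 changed in place of 624 at 24 hours, 2735 in place of 1002 at 21 days and 1427 in place of 379 between the drug-free arrays, and the 21-day control in place of vehicle gave 1337 at 24 hours. Over the 6 lists together, 1.5-fold gave 23 in place of 4 at 24 hours and 27 in place of 12 at 21 days, and at 24 hours the 21-day control gave 16 and the mean of the drug-free arrays 11. The alternatives for the lists and for the drug-free arrays were added after seeing the data. No paired analysis was possible because each condition has 1 array.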

Other observations

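Between the cultures without drug, 3 of the 98 genes of the 6 lists past the level filter were at least 2-fold apart, or 3.06%, the same share as over all features. MMP1 stood at 9.23 on the 21-day control array, against 4.21 on the vehicle array, a difference of 5.02, and ESM1, an endothelial proteoglycan with an IGFBP-type domain, at 6.36, against 3.65 (2.72). HTRA1 stood at 9.67 on the 21-day control array, against 10.77 on the vehicle array (-1.1). Culture time, array and any effect of the vehicle cannot be told apart in these values.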
